A study of Mus musculus with 51 samples.

Results

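MIN6 is a mouse insulinoma line used as a model of the pancreatic beta cell. The data described here are the gene expression profiles of MIN6 cells carrying a retroviral HMGN3a construct (HMGN3a OE) and of MIN6 cells carrying the empty retroviral vector (empty vector OE). They were chosen by sample title, 3 arrays of each, which is 6 of the 51 arrays in the series. The other arrays used here are 3 of MIN6 cells with an HMGN1 construct (HMGN1 OE) and 6 of SV40-transformed mouse embryonic fibroblasts (SV40 MEF) with the empty vector or the HMGN3a construct, 3 of each. Every one of these groups, controls included, was infected in polybrene at 5 µg/ml, selected in puromycin at 1 µg/ml for 7 days and grown for 24 h off selection before RNA was taken. The series' design text states that the amounts of HMGN protein were doubled and that the infected cells were kept as pools rather than clones. Replicates are told apart by number alone, and no label states that they came from separate infections or cultures, so the p-values measure the spread between these arrays, which may be technical.

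HMGN proteins are small nucleosome-binding proteins that compete with linker histone for chromatin and alter its folding and its modification. HMGN3 is abundant in pancreatic islets and in parts of the nervous system, and its HMGN3a form carries the C-terminal regulatory domain that the shorter HMGN3b form lacks. In beta cells HMGN3 has been reported at the gene of the glucose transporter Slc2a2 together with the transcription factor Pdx1, so the comparison asks what an added amount of HMGN3a does to the expression programme of such cells.

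Labelled RNA was hybridised to a 1-colour oligonucleotide array whose probe sets each report a transcript as an intensity. Levels below are log2 of that intensity, and differences are differences of log2 group means with their standard error. Of 18193 different genes with a probe set of a single gene symbol, 13179 passed a filter on dim signals in MIN6 cells, which required 1 of the 3 group means to reach a log2 intensity of 5.13. Where the mean of 1 group lay under 5.13, the difference is also given as a bound, counted from 5.13. A gene is called here when limma's moderated test over the 9 MIN6 arrays gave a Benjamini-Hochberg adjusted p below 0.05. The number of arrays, 3 a group, limits the precision. The typical gene had an SD between arrays of 0.0861 among the controls and 0.0866 among the HMGN3a arrays. Array medians lay between 55.5 and 57.6 intensity units, and the 3′ to 5′ difference of the Actb control probes, a sign of RNA degradation, was 0.27 to 0.38 in the controls and 0.33 to 0.45 in the HMGN3a arrays.

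The 3 HMGN3a arrays stood apart from all other MIN6 arrays. The first principal component held 69.8% of the variance and placed them at 24.9 to 29.8, against -14.9 to -11.1 for the empty vector and HMGN1 arrays together. Across genes, HMGN3a arrays correlated with one another at 0.9952 to 0.9974 and with the other 6 arrays at 0.9741 to 0.9824.

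Hmgn3 itself, the gene of the added protein on chromosome 9, differed little at the RNA level. On its first probe set the controls read 10.45, 10.54 and 10.52 and the HMGN3a arrays 10.69, 10.87 and 10.73. All 3 HMGN3a arrays lay above all 3 controls, by 0.26 ± 0.07 (SE, n = 3 a group), which is 1.2-fold (limma adjusted p = 0.0163 over all probe sets). On the second the controls read 11.3, 11.44 and 11.35 and the HMGN3a arrays 11.55, 11.59 and 11.64. These too did not overlap, with a difference of 0.23 ± 0.06, or 1.17-fold (adjusted p = 0.0156). The median difference over chromosome 9 was 0.08. With each chromosome centred on its median, this second probe set differed by 0.17 (limma adjusted p = 0.0361 over all tested genes). Neither probe set rose in the HMGN1 arrays, where the differences were -0.07 and 0.05. In the SV40 MEFs with the same construct they were -0.02 and -0.23. No label states that the construct contains the stretch which these probe sets detect, so they may report the endogenous transcript alone and are no full check of the label. The related genes Hmgn1 (0.13 ± 0.05, adjusted p = 0.0583) and Hmgn5 (0.15 ± 0.14, adjusted p = 0.429) were not called. Hmgn1 was called higher with another quantile normalization (0.17, adjusted p = 0.0137), with an intensity trend in the fit (0.13, 0.00505) and with each chromosome centred (0.18, 0.0161).

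The cells carried the markers of beta cells. Ins2, one of the mouse insulin genes, stood at 14.20, 14.16 and 14.08 in the controls and 14.20, 14.16 and 14.17 in the HMGN3a arrays, the brightest range of the array. Iapp, the amyloid peptide released with insulin, read 14.09, 14.09 and 14.05 against 14.10, 14.09 and 14.12. The groups overlapped for both, and neither was called. Pdx1, a master transcription factor of the pancreas, differed by -0.08 ± 0.06 and Nkx6-1, which maintains beta cell identity, by 0.03 ± 0.13, and neither was called. Ins1 and Mafa were not analysed here. Of 11 macrophage and leukocyte markers, 6 passed the filter and none was called, the smallest adjusted p being 0.117, for Laptm5. With each chromosome centred on its median, 2 of the 6 were called higher, among them Laptm5 (0.45, adjusted p = 0.0186). The summed log2 level of those 6 was 34.7 to 35.5 in the controls and 35.6 to 36.3 in the HMGN3a arrays. Of 13 fibroblast markers, 2 passed, and both were lower in the HMGN3a arrays, Twist2 by 0.74 and Dcn by 0.35. Dcn lies on chromosome 10, and with each chromosome centred it was not called (-0.08, adjusted p = 0.536). Of 8 endothelial markers 3 passed and none was called. The part of other cell types in the results was not tested.

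Against the empty vector, 4488 genes were called in the HMGN3a arrays, which is 34.1% of those tested. Of these, 1917 (14.5%) were higher and 2571 (19.5%) were lower. The higher genes made up 42.7% of the calls, and 51.4% with another quantile normalization, so which direction held more calls depended on the normalization. The 2 groups did not overlap for 5898 genes (44.8%), and 5866 genes had an unadjusted p below 0.05. Most called differences were small. At least 1.5-fold differences were called for 869 genes (6.59%), of which 265 were higher (2.01%) and 604 lower (4.58%). Falls made up a larger share of the calls at 1.5-fold or more than of all calls. At least 2-fold differences were called for 272 genes, 203 of them lower, and at least 4-fold for 55, 41 of them lower. The median difference over all tested genes was 0.01.

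**Figure D1:**
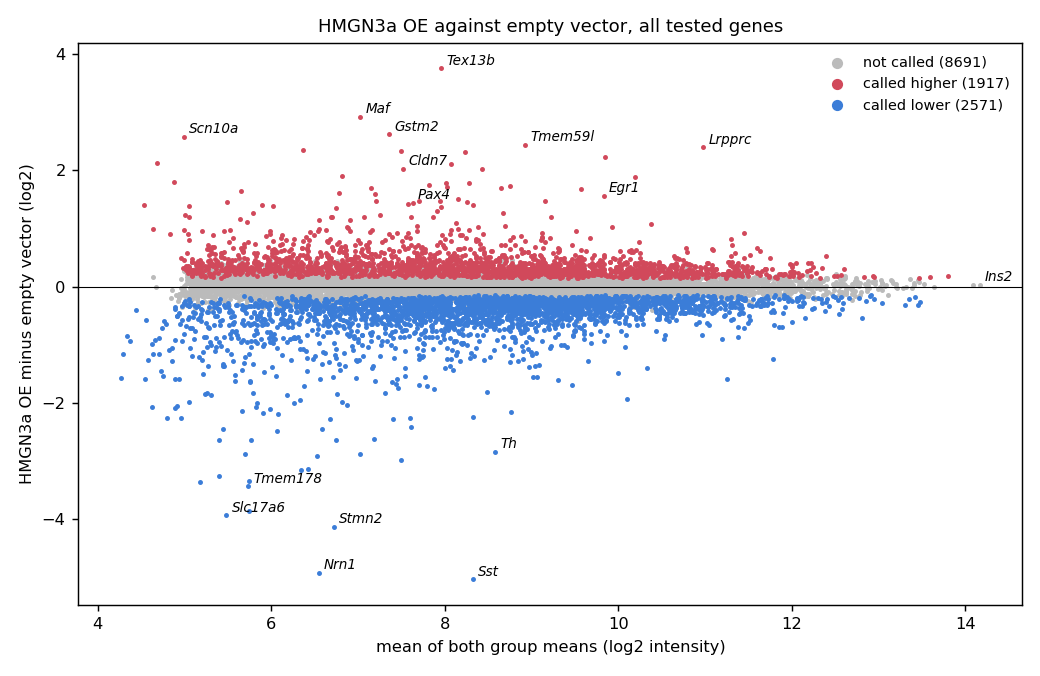
Difference between the HMGN3a OE and empty vector OE group means (log2, vertical axis) against the mean of both group means (log2 intensity, horizontal axis) for the 13179 tested MIN6 genes, 3 arrays a group. Red points are the 1917 genes called higher and blue points the 2571 called lower. The falls reach further from 0 than the rises, from Sst at -5.04 to Tex13b at 3.76.

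The largest fall was that of Sst, which encodes somatostatin, the hormone of islet delta cells that restrains insulin and glucagon release. Its level was 10.86, 10.87 and 10.77 in the controls and 5.75, 5.99 and 5.66 in the HMGN3a arrays. The 3 HMGN3a arrays lay far below every control, a difference of -5.04 ± 0.09 on the log2 scale or a fall of 32.8-fold (adjusted p = 1.7e-10). The HMGN1 arrays read 10.80, 10.95 and 10.79, next to the controls.

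Genes known from neurons followed. Nrn1, neuritin, a surface protein that promotes neurite growth, read 9.22, 8.91 and 8.90 in the controls and 3.80, 4.56 and 3.89 in the HMGN3a arrays. Its HMGN3a mean lay under the filter level of 5.13. The fitted difference was -4.93 ± 0.18, a fall of at least 3.88 counted from that level (adjusted p = 4.26e-08). Stmn2, a neuronal regulator of microtubules, read 8.82, 8.77 and 8.78 against 4.61, 4.64 and 4.69. It fell by 4.14 ± 0.05, at least 3.66 from the filter level (adjusted p = 1.35e-11), and a second probe set gave -2.42. Slc17a6, a vesicular glutamate transporter, read 7.39, 7.43 and 7.53 against 3.63, 3.79 and 3.10, a difference of -3.94 ± 0.15 and a fall of at least 2.31. Its second probe set gave -2.64. Slc1a2, a plasma membrane glutamate transporter, read 7.84, 7.83 and 8.08 against 4.84, 4.55 and 4.88, a difference of -3.16 ± 0.10 and a fall of at least 2.78. Its 3 other probe sets above the filter gave -0.51, -0.51 and -0.02, so the size of that fall depends on the probe set.

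The remaining large falls were of mixed function, and in each of them all HMGN3a arrays lay below all controls. The fitted differences were -3.86 ± 0.15 for Aard (a fall of at least 2.54), -3.44 ± 0.12 for Tmem178, a membrane protein (at least 2.32), and -3.36 ± 0.17 for Pcdh17, a protocadherin of cell adhesion (at least 1.72). They were -3.35 ± 0.09 for Dcaf12l1 (at least 2.28) and -3.26 ± 0.07 for Hs6st2, which sulfates heparan sulfate chains (at least 1.89). Dmrt3, a transcription factor, fell by 3.15 ± 0.08 (at least 2.87). Slc6a15, a neutral amino acid transporter, read 8.74, 9.03 and 9.20 against 5.91, 5.93 and 6.19 and fell by 2.98 ± 0.13. Of these 12 genes, the means of 10 lay under the filter level in HMGN3a cells, all but Sst and Slc6a15.

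The largest rise was that of Tex13b, a testis-expressed gene of the X chromosome. Its level was 5.91, 5.95 and 6.37 in the controls, 7.98, 7.79 and 7.99 in the HMGN1 arrays and 9.53, 9.98 and 9.99 in the HMGN3a arrays. The 3 groups did not overlap, and the HMGN3a arrays were higher than the controls by 3.76 ± 0.14 or 13.5-fold (adjusted p = 4.69e-08). Maf, a transcription factor related to the beta cell factor Mafa, read 5.61, 5.48 and 5.58 in the controls, 6.67, 6.4 and 6.74 with HMGN1 and 8.43, 8.50 and 8.50 with HMGN3a. It rose by 2.92 ± 0.08 or 7.56-fold (adjusted p = 8.46e-09), while 2 other probe sets above the filter gave 1.29 and 0.08.

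Lrpprc, which binds mitochondrial mRNAs and keeps them stable, rose from an already high level. It read 9.77, 9.76 and 9.81 in the controls and 12.20, 12.24 and 12.09 in the HMGN3a arrays, a rise of 2.40 ± 0.06 or 5.26-fold (adjusted p = 2.46e-09). The HMGN1 arrays stayed near the controls at 9.82, 9.87 and 9.88. Grem1, a secreted antagonist of bone morphogenetic proteins, read 6.96, 6.97 and 7.12 against 9.19, 9.27 and 8.91 and rose by 2.11 ± 0.09 or 4.31-fold. Scn10a, a voltage-gated sodium channel subunit, was under the filter level in the controls at 3.56, 3.79 and 3.77 and stood at 6.45, 5.83 and 6.57 in the HMGN3a arrays. Its fitted rise was 2.58 ± 0.16, of which at least 1.15 lay above the filter level.

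The other large rises had the HMGN3a arrays above all controls as well. They were Gstm2, a glutathione transferase (2.62 ± 0.10), Tmem59l (2.44 ± 0.07), Jakmip2 (2.35 ± 0.15), Calml4, a calmodulin-like protein (2.34 ± 0.07), Smim22 (2.31 ± 0.10), Gng3, a G protein gamma subunit of neurons (2.23 ± 0.09), and Magea5, a germ cell antigen (2.12 ± 0.16, at least 0.61). Tmem59l and Gng3 were also higher in the HMGN1 arrays, by 0.85 and 0.79.

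**Figure D2:**
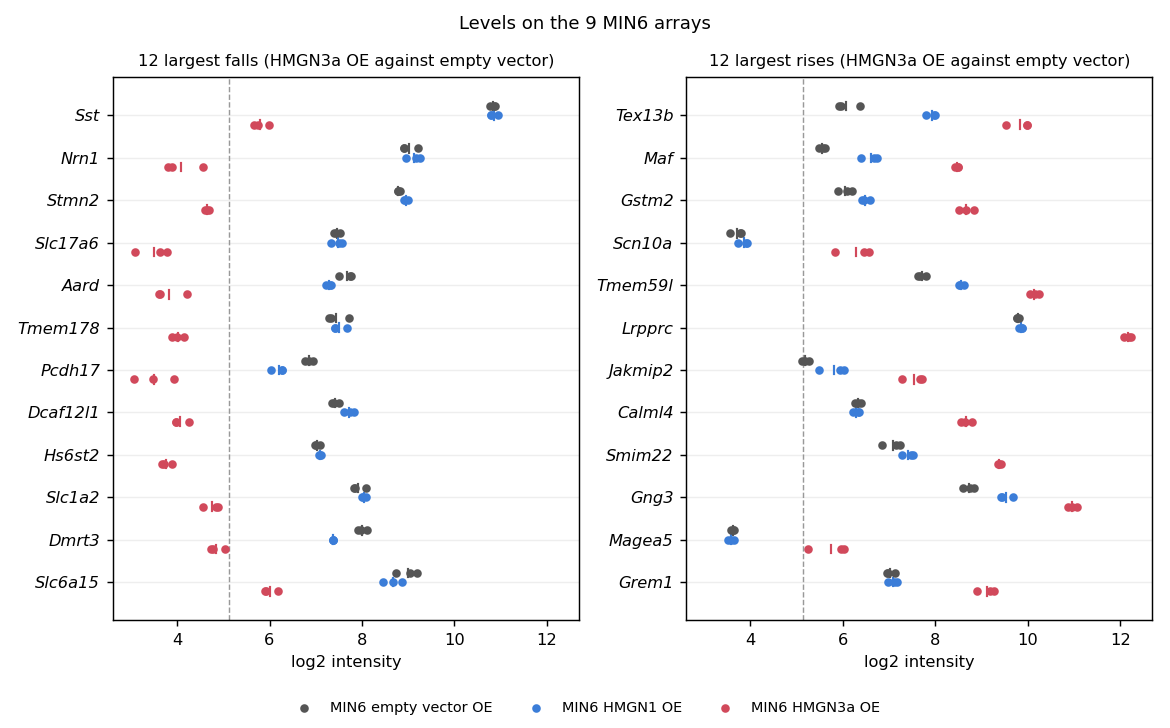
Level (log2 intensity, horizontal axis) on each of the 9 MIN6 arrays of the 12 genes with the largest falls (left) and the 12 with the largest rises (right) in HMGN3a OE against empty vector OE; points are single arrays, short bars group means, and the dashed line is the filter level of 5.13. The HMGN3a points lie apart from the empty vector points in each of the 24 genes, and the HMGN1 points of Tex13b (7.79 to 7.99) lie between the 2 other groups.

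Sst is a classical target of signalling through the cAMP response element, and its promoter is shown with those of Th, Cldn7 and Tmem59l, the genes described here as strongly changed whose sequence before the start site holds that element. The sequences are the 250 bases before the transcription start in RefSeq's annotation of the mouse build GRCm38.p6, read along the gene's strand, with the element, TGACGTCA, in capitals. It reads the same on both strands.
Sst (chr16:23890845-23891094, minus strand): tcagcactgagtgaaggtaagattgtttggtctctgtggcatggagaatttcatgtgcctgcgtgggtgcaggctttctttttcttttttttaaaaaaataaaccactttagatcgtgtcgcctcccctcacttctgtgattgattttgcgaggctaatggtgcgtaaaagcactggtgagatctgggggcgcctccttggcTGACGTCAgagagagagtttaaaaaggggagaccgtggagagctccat
Th (chr7:142899996-142900245, minus strand): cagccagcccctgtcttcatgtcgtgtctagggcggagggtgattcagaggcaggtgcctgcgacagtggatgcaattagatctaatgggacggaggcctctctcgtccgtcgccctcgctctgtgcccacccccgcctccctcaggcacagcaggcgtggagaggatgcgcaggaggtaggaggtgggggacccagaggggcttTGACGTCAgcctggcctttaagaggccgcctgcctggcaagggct
Cldn7 (chr11:69965171-69965420, plus strand): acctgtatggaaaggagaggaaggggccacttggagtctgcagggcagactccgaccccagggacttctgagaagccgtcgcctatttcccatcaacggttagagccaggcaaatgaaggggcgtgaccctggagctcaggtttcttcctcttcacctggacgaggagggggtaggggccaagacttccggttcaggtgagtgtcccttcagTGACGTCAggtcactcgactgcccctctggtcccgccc
Tmem59l (chr8:70487349-70487598, minus strand): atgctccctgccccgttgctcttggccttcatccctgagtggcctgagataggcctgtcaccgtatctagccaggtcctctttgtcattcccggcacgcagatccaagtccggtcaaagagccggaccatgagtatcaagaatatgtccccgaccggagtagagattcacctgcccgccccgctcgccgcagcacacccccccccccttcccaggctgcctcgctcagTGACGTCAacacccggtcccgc

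In these windows the element lies at -48 to -41 in Sst, -45 to -38 in Th, -38 to -31 in the second of the 2 Cldn7 start sites and -22 to -15 in Tmem59l, counted from the start site. Th, tyrosine hydroxylase, the entry enzyme of dopamine synthesis, read 10.06, 9.93 and 10.03 in the controls and 6.98, 7.08 and 7.41 in the HMGN3a arrays and fell by 2.85 ± 0.10. Cldn7, a tight junction protein, read 6.51, 6.57 and 6.41 against 8.33, 8.70 and 8.56 and rose by 2.03 ± 0.09. Among the 4 genes shown, 2 fell and 2 rose. The element was found in 508 of 32851 such windows (1.55%) and in the window of 313 of the 10634 tested genes that had one (2.94%). The shares among genes called and at least 1.5-fold lower or higher were 12 of 498 (2.41%) and 5 of 194 (2.58%). At 2-fold they were 5 of 167 lower (2.99%) and 3 of 50 higher (6.0%), and among the 24 genes with the largest rises and falls 2 of the 18 with a window held the element. A match is a description of the letters and not a measured binding site.

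Genes were then grouped by lists of related function, and each list is read against the background of 14.5% of tested genes called higher, 19.5% called lower and a median of 0.01. Of 12 islet hormone and peptide genes measured, 3 rose and 5 fell. Beside Sst, the falls were Vgf, a granule peptide precursor (-0.64 ± 0.10), Gcg, the glucagon gene (-0.44 ± 0.06), Adm (-0.35 ± 0.08) and Igf2 (-0.22 ± 0.05). Ppy, the pancreatic polypeptide gene, read 4.97, 5.51 and 5.00 in the controls and 6.32, 6.28 and 6.25 in the HMGN3a arrays and rose by 1.12 ± 0.13. Ucn3, urocortin of mature beta cells, read 6.41, 6.38 and 6.38 against 7.14, 6.91 and 7.44 and rose by 0.77 ± 0.11. It was lower in the HMGN1 arrays, at 5.68 to 5.79. Npy, one of the brightest genes of the array, was called higher by 0.19 ± 0.05, and with another quantile normalization its difference was 0.00. Rbp4, a retinol carrier also used as a delta cell marker, fell by 1.10 ± 0.10, while the HMGN1 arrays were higher than the controls by 0.81. Of 5 alpha cell markers measured, 3 fell and 1 rose, with a median of -0.32; beside Gcg the falls were Ttr (-0.32 ± 0.05) and Irx1 (-0.36 ± 0.08). Of 6 acinar markers 1 fell and 1 rose. The median difference of the hormone list was 0.01, the same as over all genes.

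Of 25 transcription factors of the beta cell lineage, 4 rose, 3 fell and 18 were not called, a share of 28.0% called against 34.1% of all genes, with a median of 0.03. Pax4, which sets endocrine precursors on the beta cell path, read 6.97, 6.92 and 6.84 in the controls and 8.50, 8.15 and 8.4 in the HMGN3a arrays. It rose by 1.44 ± 0.08 or 2.71-fold (adjusted p = 8.82e-07), without overlap. Sox4 was called higher by 0.72 ± 0.08 on its brightest probe set, and its 6 probe sets above the filter ranged from -0.08 to 0.77. Mlxipl, the glucose-responsive factor ChREBP, rose by 0.54 ± 0.09 and Hnf4a by 0.28 ± 0.07. Sox11 fell by 0.81 ± 0.06, Foxa1 by 0.56 ± 0.07 and Onecut2 by 0.56 ± 0.09.

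Among 28 genes of glucose sensing and incretin signalling, 7 rose and 7 fell, with a median of 0.00. Slc2a2, the glucose transporter of rodent beta cells, read 9.14, 9.01 and 9.08 in the controls and 7.88, 7.57 and 8.01 in the HMGN3a arrays. It fell by 1.26 ± 0.10 or 2.39-fold (adjusted p = 7.58e-06), and it was lower in the HMGN1 arrays as well, at 8.33, 8.27 and 8.22 (by 0.81 ± 0.10, adjusted p = 0.00478). The direct contrast of both constructs placed HMGN3a below HMGN1 by 0.45 ± 0.10. Slc2a1, the other glucose transporter of the list, fell by 0.60 ± 0.13. Ldha, lactate dehydrogenase, a gene that mature beta cells keep low, fell by 0.70 ± 0.07, Hk1 by 0.36 ± 0.07 and Gpd2 of the glycerol phosphate shuttle by 0.32 ± 0.05. Hk1 lies on chromosome 10, and with each chromosome centred it was not called (-0.09, adjusted p = 0.345). The channels Kcnk16 (0.90 ± 0.06) and Trpm5 (0.83 ± 0.07) rose, and so did Glud1, glutamate dehydrogenase (0.35 ± 0.06).

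Among 31 genes of secretory granules and exocytosis, 7 rose, 3 fell and 21 were not called. The share called, 32.3%, was near the 34.1% of all genes, and the median was 0.06. Syt9, a calcium sensor of exocytosis, read 8.12, 8.25 and 8.4 in the controls against 6.43, 6.69 and 6.83 and fell by 1.60 ± 0.10 or 3.04-fold, the only member past 1.5-fold. Resp18 (0.52 ± 0.06), Sytl4 (0.40 ± 0.06), Cplx2 (0.32 ± 0.07), Pcsk1n (0.30 ± 0.07) and Pcsk1, a prohormone convertase (0.18 ± 0.05), rose. Cadps fell by 0.29 ± 0.08 and the granule protein Chgb by 0.17 ± 0.05. Each of these last small calls was lost in more than 1 of the fits that left out a single array. Without HMGN3a replicate 1 the adjusted p was 0.0516 for Pcsk1, 0.0533 for Cadps and 0.0654 for Chgb. The call was also lost without empty vector replicate 2 for Pcsk1 (0.0519) and Chgb (0.0684), without empty vector replicate 3 for Cadps (0.073) and Chgb (0.0545), and without HMGN3a replicate 3 for Chgb (0.0669).

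Of 31 genes shared by neurons and endocrine cells, 7 rose and 10 fell, so 54.8% were called, with a median of -0.06. The falls reached further than the rises. Beside Stmn2, Slc17a6 and Th they included Mapt, the microtubule protein tau, which read 10.60, 10.61 and 10.59 against 9.56, 9.54 and 9.59 and fell by 1.04 ± 0.05. Tph1, an enzyme of serotonin synthesis, fell by 0.63 ± 0.09, and the neurofilament genes Nefh and Ina fell by 0.51 ± 0.10 and 0.47 ± 0.06. The other 2 neurofilament genes of the list, looked up after the values were seen, did not follow, with Nefm called higher (0.26, adjusted p = 0.0182) and Nefl at 0.05 (adjusted p = 0.428). The 7 rises were small, from 0.24 for the imprinted gene Peg3 to 0.42 for the adhesion protein L1cam, and also held Ddc, Elavl3, Stmn3 and Tubb3. Elavl4, a neuronal RNA-binding protein, was called lower by 0.40 ± 0.07. It lies on chromosome 4, and after centring on that chromosome its difference was -0.20 with an adjusted p of 0.0547. Rest, a repressor of neuronal genes, was looked up after the values were seen. Its 1 probe set above the filter, of 4, read 3.97, 4.20 and 3.78 in the controls and 5.57, 5.88 and 5.90 in the HMGN3a arrays, a fitted difference of 1.80 ± 0.12 of which at least 0.65 lay above the filter level. The other 3 probe sets gave 0.12, 0.21 and 0.61 below it, and without the filter, where a brighter probe set stood for the gene, it was not called (0.21, adjusted p = 0.261).

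Of 16 genes that earlier work tied to HMGN proteins, 4 rose and 2 fell, with a median of 0.07. Slc2a2, described above, had the largest difference. Slc6a9, a glycine transporter, was called lower by 0.32 ± 0.06. Jun rose by 0.39 ± 0.07 and Fos by 0.44 ± 0.09. Slc6a9 and Jun lie on chromosome 4, and centred on that chromosome Slc6a9 differed by -0.12 with an adjusted p of 0.109. Jun was still called higher after centring (0.59, adjusted p = 0.00019).

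Genes of the hypoxia response and glycolysis were lower as a group. Of 26 measured, 13 fell and 1 rose, against 19.5% and 14.5% of all genes, with a median of -0.19. Higd1a, a mitochondrial protein induced by hypoxia, read 11.10, 11.08 and 11.03 in the controls and 9.0, 9.31 and 9.11 in the HMGN3a arrays and fell by 1.93 ± 0.09 or 3.80-fold. Its 3 probe sets gave -1.77 to -1.97. P4ha2, a prolyl hydroxylase of collagen, fell by 1.38 ± 0.09 and Egln3, an oxygen sensor that is itself a hypoxia target, by 1.39 ± 0.13.

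Genes of the unfolded protein response were lower as well, with 13 of 25 called lower, none higher and a median of -0.18. Ern1, the sensor IRE1, read 9.68, 9.62 and 9.56 in the controls against 8.81, 9.08 and 9.03 and fell by 0.65 ± 0.07. Wfs1 (-0.45 ± 0.06), Txndc5 (-0.37 ± 0.07) and Sel1l (-0.30 ± 0.06) fell too. The differences were small, with 1 of the 13 past 1.5-fold. With another quantile normalization, 10 members were called lower and 2 higher. In the list of the amino acid response 2 of 24 rose and 3 fell, among them the transporter Slc7a3 (0.67 ± 0.07), the serine synthesis enzyme Phgdh (0.61 ± 0.08), the stress factor Ddit3 (-0.80 ± 0.14) and Trib3 (-0.49 ± 0.10). Ddit3 lies on chromosome 10, and with each chromosome centred it was still called lower (-0.53, adjusted p = 0.019).

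Of 28 genes of oxidative phosphorylation 5 fell and none rose, a share of 17.9% called, with a median of -0.03. Sdhb (-0.34 ± 0.05), Tfam (-0.37 ± 0.09) and Atp5b (-0.24 ± 0.05) lie on chromosomes 4 and 10, and after centring on their chromosomes Sdhb differed by -0.14 (adjusted p = 0.049), Tfam was not called (-0.10) and Atp5b differed by 0.03. Ppargc1a, a coactivator of mitochondrial genes on chromosome 5, was called lower by 0.53 ± 0.15, a call lost without empty vector replicate 3 (adjusted p = 0.0667), HMGN3a replicate 1 (0.0568) or HMGN3a replicate 3 (0.0661). With another quantile normalization 3 members of this list were called higher and 5 lower. Among 20 cholesterol synthesis genes 4 rose and 3 fell, with Fdft1 at 0.59 ± 0.07 and Insig1 at -0.86 ± 0.19. Among 21 chaperone genes 3 rose and 4 fell, with Hspb1 at 0.64 ± 0.07 and Hspb8 at -1.13 ± 0.06. Dnajb4 was called lower by 1.2 ± 0.08, and 1 of its 3 probe sets gave 0.21.

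Genes of mitosis and DNA replication were called higher more often than lower. Of 29 mitosis genes 14 rose and 2 fell, with a median of 0.18, and of 33 DNA replication genes 12 rose and 1 fell, with a median of 0.13. Tpx2, which builds the spindle, read 10.06, 9.94 and 10.01 in the controls against 10.49, 10.51 and 10.51 and rose by 0.50 ± 0.05. Mki67, the proliferation marker Ki-67, read 11.80, 11.79 and 11.79 against 12.17, 12.12 and 12.26 and rose by 0.39 ± 0.06. Ccnb2 rose by 0.42 ± 0.05, Kif23 by 0.41 ± 0.05, Prim2 by 0.35 ± 0.06 and Rfc5 by 0.35 ± 0.06. The groups of Tpx2 and Mki67 did not overlap, yet no mitosis gene reached 1.5-fold. Mcm5 (0.65 ± 0.08) and Cdt1 (0.34 ± 0.06) rose too, and both lie on chromosome 8, where genes were higher in general, as described below. With each chromosome centred both were still called higher, at 0.52 (adjusted p = 0.000962) and 0.21 (0.0149).

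A list of p53 targets and inhibitors of cyclin-dependent kinases also held Ccnd2, a cyclin and not an inhibitor. Of its 24 measured genes, 5 rose and 9 fell, Ccnd2 among the falls, with a median of -0.13. Perp, a death-linked membrane protein, fell by 1.10 ± 0.10 and Mdm2, the ubiquitin ligase of p53, by 0.67 ± 0.06, both on chromosome 10. With each chromosome centred both were still called lower, at -0.82 (adjusted p = 0.000154) and -0.4 (0.000552). Aen, a nuclease, fell by 0.68 ± 0.07 and Ccnd2, cyclin D2 of beta cell division, by 0.66 ± 0.06 from 12.13, 12.11 and 12.14 to 11.45, 11.54 and 11.41. Of the 9 falls, 4 lay on chromosomes 4 and 10.

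Epithelial junction and keratin genes had the highest median of the lists outside the cell type markers, 0.31. Of 18 measured, 12 rose and 1 fell, so 72.2% were called against 34.1% of all genes. Beside Cldn7, Epcam, an epithelial adhesion protein, read 9.97, 9.91 and 9.64 in the controls against 10.89, 10.95 and 10.89 and rose by 1.07 ± 0.09 or 2.10-fold. Krt7 rose by 0.82 ± 0.06 and Krt18 by 0.54 ± 0.05. Krt7 is also a duct marker, and of the 5 duct markers measured it was the only one called, with Sox9 at 0.04 ± 0.06. The summed log2 level of the duct markers was 34.5 to 35.0 in the controls and 35.8 to 36.3 in the HMGN3a arrays.

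Of 33 interferon response genes 13 rose and 6 fell, with a median of 0.25. Mx1, an antiviral protein, read 6.11, 5.85 and 5.94 in the controls against 7.01, 7.10 and 7.25 and rose by 1.15 ± 0.09. Oas1a rose by 0.71 ± 0.06 and Oasl2 by 1.19 ± 0.12 (at least 0.52), while Gbp7 fell by 0.88 ± 0.08. The other falls were Usp18 (-0.58), Rsad2 (-0.47), Rtp4 (-0.40), Stat2 (-0.35) and Igtp (-0.27), so the list was mixed. All groups were infected with retrovirus, and whether infection played a part in these differences was not tested.

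Of 26 immediate early genes 10 rose and 6 fell, with a median of 0.18. Of the 10 rises, 6 lay on chromosomes 4, 8, 10 and 14, and on the others 4 rose and 4 fell. Of those 6, Jun (0.39), Klf4 (0.32) and Nr4a3 (0.21) lie on chromosome 4, where genes were lower in general, as described below. Ier2 (0.62), Junb (0.36) and Jund (0.28) lie on chromosome 8, where genes were higher in general. With each chromosome centred 8 rose and 6 fell. Egr1, an early growth response factor, read 9.17, 9.02 and 8.98 against 10.48, 10.80 and 10.55 and rose by 1.56 ± 0.08 or 2.94-fold. Dusp4 (-0.90 ± 0.08) and Dusp6 (-0.80 ± 0.12), phosphatases that act on MAP kinases, and Ier3 (-0.62 ± 0.09) fell. Among 18 genes of TGF-beta, BMP and Id signalling 6 rose and 4 fell. The ligand genes Inhba (1.04 ± 0.09) and Tgfb1 (0.60 ± 0.08) rose, and Tgfb2 fell by 1.32 ± 0.11 (at least 1.21). The pseudoreceptor Bambi rose by 0.37 ± 0.06.

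Among 16 Wnt and Notch genes 4 rose and 3 fell. The Notch ligands Dll4 (0.68 ± 0.07) and Dll1 (0.56 ± 0.11) and the Wnt receptor Fzd2 (0.41 ± 0.08) rose, and Fzd7 fell by 0.37 ± 0.08. Of 14 extracellular matrix genes above the filter, out of 33 in the table, 3 rose and 3 fell, with Lamb1 at 0.88 ± 0.13 and Col6a2 at -0.64 ± 0.07. Among 20 genes of chromatin architecture 5 rose and 1 fell, and none reached 1.5-fold. The linker histone H1f2 rose by 0.32 ± 0.06, Hmgb2 by 0.36 ± 0.09 and Ctcf by 0.28 ± 0.08. Hmgb2 and Ctcf lie on chromosome 8, and once each chromosome was centred they were not called, and 1 member of the list was still called higher. The call of Ctcf was lost as well without empty vector replicate 1 (adjusted p = 0.0546), HMGN3a replicate 2 (0.0546) or HMGN3a replicate 3 (0.0574). Across all named genes, 72 had a second probe set above the filter. Of these, 19 were called on the brighter one and, with the same sign, not called on the second. Beside Maf and Slc1a2 they were Adm, Hnf4a, Cplx2, Slc6a9, Jun, Gbp7, Ppargc1a, Prim2, H1f2, Ctcf, Col6a2, Timp2, Inhba, Dll4, Fzd7, Loxl4 and Bhlha15. A further 2, Dnajb4 and Kdm5b, were called lower on the brighter one and had the opposite sign on the second, where they were not called (0.21 and 0.13).

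**Figure D3:**
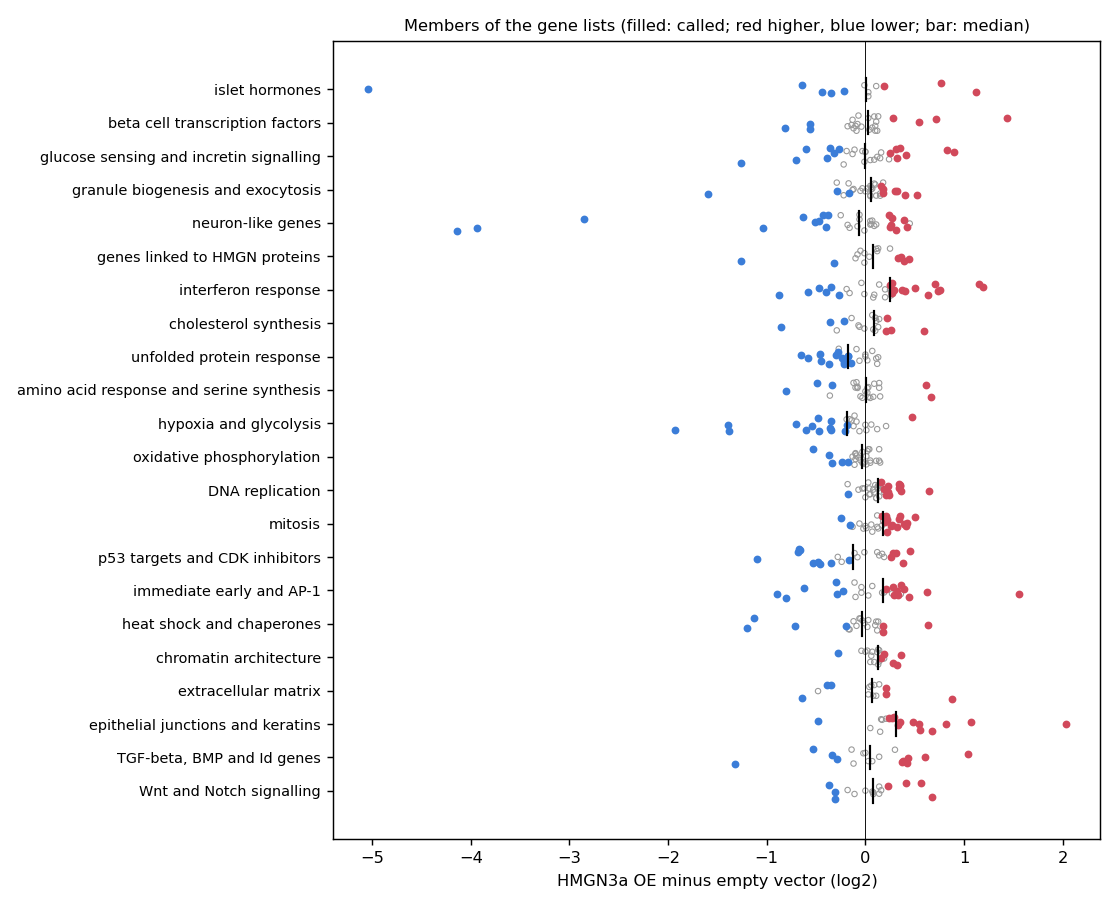
Difference of HMGN3a OE from empty vector OE (log2, horizontal axis) for each measured member of the 22 gene lists, 3 arrays a group; filled points are called genes, red higher and blue lower, open points genes not called, and the black bar is the list's median. The medians lie between -0.19 for hypoxia and glycolysis and 0.31 for epithelial junctions and keratins, while single members such as Sst lie far outside.

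The called genes were not spread evenly over the genome. On chromosome 10, 57.5% of the 633 tested genes were called lower and 2.05% higher, and on chromosome 4, 47.7% of 833 were lower and 3.24% higher. On chromosome 8, 36.5% of 699 were called higher and 7.44% lower, and on chromosome 14, 37.8% of 437 were higher and 9.38% lower. The median difference was -0.28 on chromosome 10, -0.19 on chromosome 4, 0.16 on chromosome 8 and 0.15 on chromosome 14. On the linear scale these medians are ratios of 0.825, 0.875, 1.11 and 1.11. On each of the other 16 chromosomes with tested genes the median lay within 0.1 of 0, although stretches of some of them were shifted, as described below. Every HMGN3a array showed the shifts, with chromosome 10 medians of -0.31, -0.27 and -0.25 against the mean of the controls, and chromosome 8 medians of 0.14, 0.14 and 0.17. With another quantile normalization the 4 medians were -0.24, -0.16, 0.18 and 0.17.

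The HMGN1 arrays had chromosome 10 medians of -0.04, -0.08 and -0.07 and chromosome 4 medians of -0.06, -0.09 and -0.07, and on chromosomes 8 and 14 they lay between -0.01 and 0.04. In the SV40 MEFs, the HMGN3a arrays had medians of -0.01 to 0.02 on chromosome 10 and 0.00 to 0.04 on chromosome 8. The shifts thus appeared in the MIN6 cells with HMGN3a and were not seen at that size in the other groups compared.

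**Figure D4:**
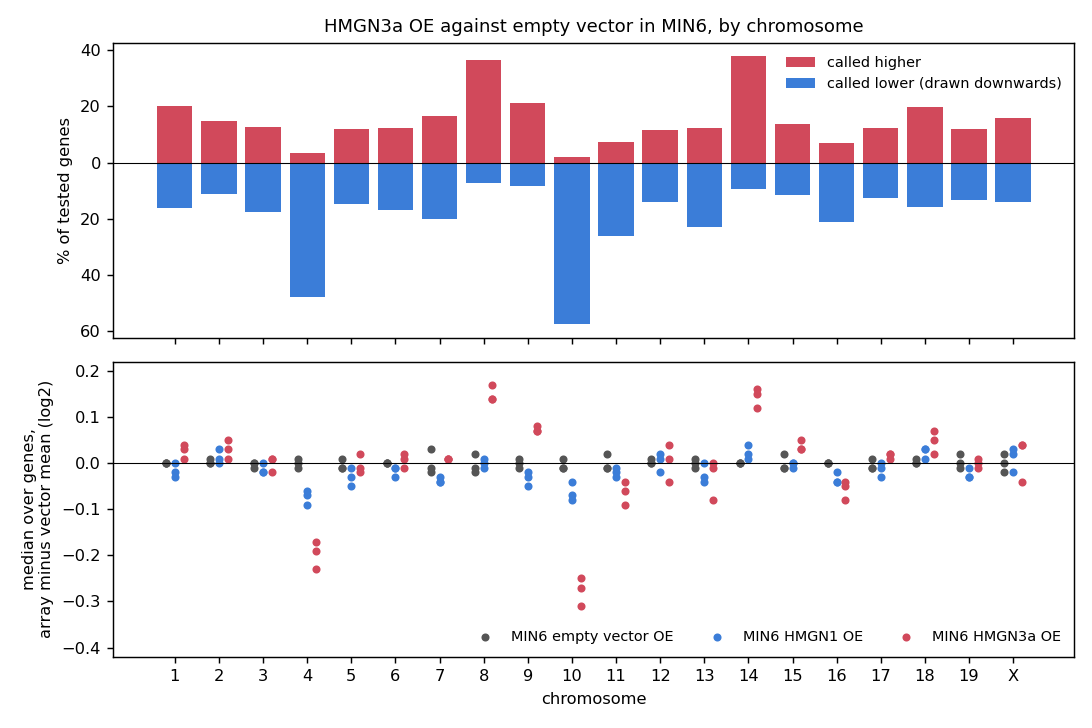
Upper panel: percent of tested MIN6 genes on each chromosome called higher (upwards, red) or lower (downwards, blue) in HMGN3a OE against empty vector OE. Lower panel: median over the chromosome's genes of each array minus the empty vector mean (log2), 1 point an array. Chromosomes 4 and 10 lie lowest and 8 and 14 highest in the 3 HMGN3a arrays, and the HMGN1 points stay within 0.09 of 0.

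The shifts did not cover all 4 chromosomes in the same way. Along chromosome 10 the median of 50 neighbouring genes stayed between -0.59 and -0.17 and was below -0.1 in 100% of windows. Along chromosome 4 it ran from -0.36 to -0.05, below -0.1 in 91.6% of windows. Chromosome 8 changed partway. Its first 174 tested genes, from Insr to Ankrd37, had a median of 0.03 with 15.5% called higher and 17.8% lower, and the next 3 sets of 175 genes had medians of 0.18, 0.19 and 0.19 with 41.7% to 45.1% called higher. On chromosome 14 the 4 successive sets of 109 or 110 genes had medians of -0.04, 0.12, 0.26 and 0.26, with 11%, 27.5%, 56.9% and 55.5% called higher.

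Some of the other chromosomes held shifted stretches. On chromosome 7 the running median went from -0.24 to 0.21, with 22.8% of windows below -0.1 and 31.8% above 0.1. It reached -0.30 on chromosome 3 (7.28% of windows below -0.1), -0.29 on chromosome 11 (21.3%) and -0.27 on chromosome 13 (18.4%). It was above 0.1 in 35.6% of windows on chromosome 18, 30.4% on chromosome 9 and 29.2% on chromosome 1.

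The lowest window of chromosome 10 held 50 genes, of which 37 were called lower and none higher, with a median of -0.59. It contains Slc6a15, Mdm2 and Cct2, a subunit of the cytosolic chaperonin that fell by 0.71 ± 0.05. Neighbouring windows share most of their genes and are not independent. DNA copy number was not measured in these files, and whether it moved with these shifts was not tested.

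**Figure D5:**
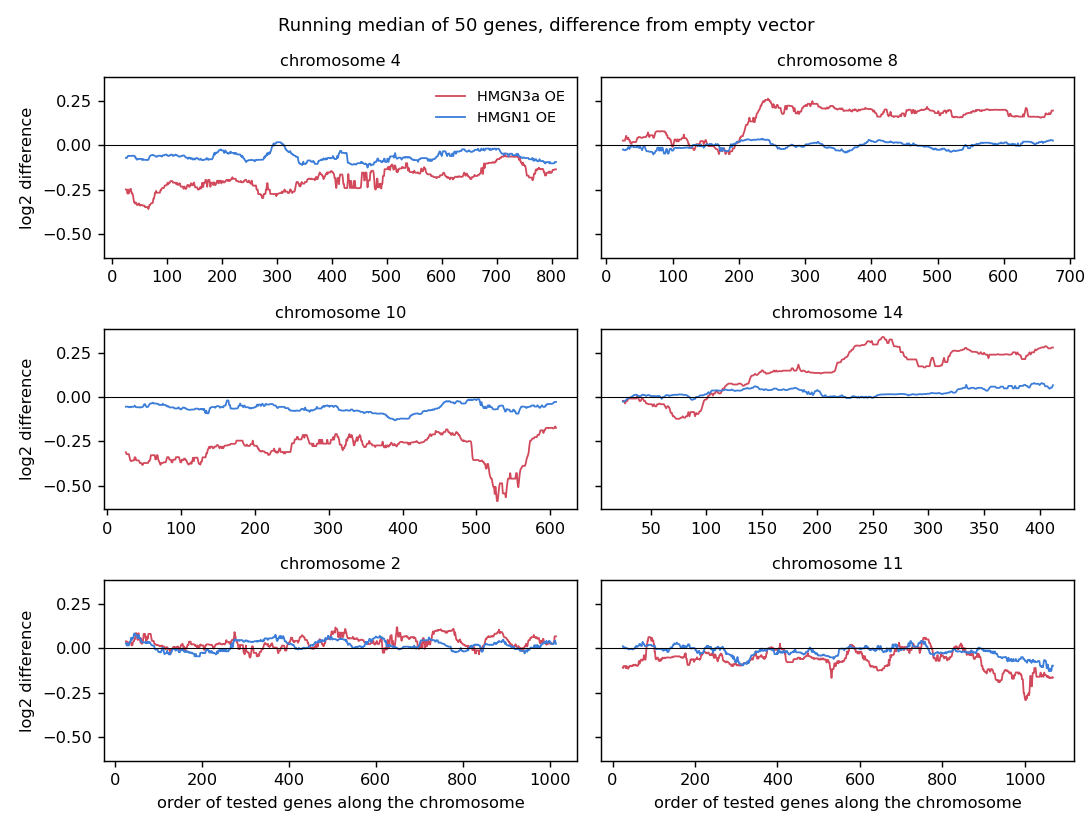
Median difference from empty vector OE (log2, vertical axis) over windows of 50 tested genes in their order along chromosomes 4, 8, 10, 14, 2 and 11 (horizontal axis, rank of the window's centre), for HMGN3a OE (red) and HMGN1 OE (blue) in MIN6. The red line lies below 0 along all of chromosome 10 (-0.59 to -0.17), steps up within chromosomes 8 and 14, stays between -0.05 and 0.12 on chromosome 2 and reaches -0.29 on chromosome 11.

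Chromosomes 4, 8, 10 and 14 held 1314 called genes of 2602 tested (50.5%), and the others held 3158 of 10507 (30.1%). They accounted for 29.4% of the calls on placed genes and for 255 of the 867 at 1.5-fold or more. When each chromosome's median was set to the same level in every array, 4119 genes were called, of which 3566 were called in the same direction as before. This setting was chosen after the data had been seen. Under it the hypoxia and glycolysis list had 11 genes lower and 2 higher, the unfolded protein response 10 lower and 1 higher, the mitosis list 16 higher and 1 lower, and the epithelial list 13 higher and 1 lower. The members of the unfolded protein response that fell lay on other chromosomes in 12 of 13 cases, as did 20 of all 25 members tested. With centring, 9 of those 13 calls were kept. Other named genes on chromosomes 4, 10 and 14 were still called with smaller differences. These were -0.53 for Dusp6, -0.40 for Slc2a1 (adjusted p = 0.0346), -0.37 for Col6a2, 0.22 for Glud1 and 0.47 for Fdft1. Some moved further from 0, among them Dusp4 on chromosome 8 at -1.03 and Cadps on chromosome 14 at -0.41.

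The HMGN1 construct gives a second comparison in the same line, between 2 overexpression pools and without the vector controls. Between HMGN3a and HMGN1 arrays 4472 genes were called (33.9%), 2143 higher (16.3%) and 2329 lower (17.7%) with HMGN3a, and 853 (6.47%) differed by at least 1.5-fold, 604 of them lower. The largest fitted fall was that of Sst (-5.05 ± 0.09). The next by fitted difference had HMGN3a means under 5.13, so their order is not settled. They were Nrn1 (-5.04 ± 0.18, a fall of at least 3.99), Stmn2 (-4.30 ± 0.05, at least 3.81), Slc17a6 (-3.97 ± 0.15, at least 2.34), Dcaf12l1 (-3.67 ± 0.09, at least 2.60) and Tmem178 (-3.50 ± 0.12, at least 2.37). The largest rises were Cldn7 (2.53 ± 0.09), Scn10a (2.42 ± 0.16, at least 1.15), Flrt3, a membrane protein of cell adhesion (2.39 ± 0.12), Calml4 (2.37 ± 0.07), Lrpprc (2.32 ± 0.06) and Gstm2 (2.18 ± 0.10). Flrt3 read 7.53, 7.11 and 7.17 in the controls, 6.42, 6.06 and 6.27 with HMGN1 and 8.6, 8.6 and 8.73 with HMGN3a, so the constructs lay on opposite sides of the controls.

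Against the same vector controls, HMGN1 had 151 called genes (1.15%), 65 higher (0.493%) and 86 lower (0.653%), with 2246 at an unadjusted p below 0.05. Both comparisons use the same 3 control arrays, so their values are only set side by side. Tex13b differed from the controls by 1.84 with HMGN1 and 3.76 with HMGN3a, Maf by 1.04 and 2.92, Tmem59l by 0.85 and 2.44, and Gng3 by 0.79 and 2.23. Dmrt3 differed by -0.64 and -3.15 and Th by -0.52 and -2.85. Sst (0.01 and -5.04), Slc17a6 (0.02 and -3.94) and Calml4 (-0.03 and 2.34) were close to the controls with HMGN1. Rbp4 (0.81 and -1.10) and Ucn3 (-0.65 and 0.77) lay on opposite sides.

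The same construct in SV40 MEFs gave 2 called genes of 14154 tested (0.0141%), with 1747 at an unadjusted p below 0.05 in limma's fit over 12 arrays. These were H3f3b, a gene of the replacement histone H3.3, at 0.74 ± 0.08, and Mycn, a growth-promoting transcription factor, at -0.50 ± 0.05. Both were named after their values were seen, and in MIN6 they differed by -0.04 and -0.26. The difference between the lines was tested directly, as the HMGN3a effect in MIN6 minus that in SV40 MEFs. It was called for 2784 genes (19.7%), 977 higher (6.9%) and 1807 lower (12.8%), so that 35.1% of the called genes were higher, which became 46.3% with another quantile normalization. At least 1.5-fold, it was called for 978 (6.91%).

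Nrn1 was bright in the empty vector arrays of both lines. It read 8.68, 8.72 and 8.62 in the SV40 MEF controls and 8.77, 8.57 and 8.78 with HMGN3a there, and its effects differed between the lines by -4.96 ± 0.23. Mbnl3, an RNA-splicing regulator, stood at 7.54, 7.39 and 7.69 in the SV40 MEF controls and 7.46, 7.45 and 7.31 with HMGN3a. In MIN6 the same probe set read 6.93, 7.08 and 7.42 against 3.61, 3.36 and 3.68. In both lines the empty vector arrays lay above the line's filter level, 5.13 in MIN6 and 3.63 in SV40 MEFs. Whether the 2 lines were normalized together is not given, so levels are not compared between them, here or for Nrn1. The effects on Mbnl3 differed by -3.45 ± 0.17. The MIN6 fall was at least 2.01 counted from 5.13, and the 2 other probe sets above the filter gave -1.73 and -1.33 in MIN6, so its size depends on the probe set. Lrpprc read 9.06, 9.06 and 9.12 against 9.09, 8.89 and 8.97 in SV40 MEFs, with a difference of effects of 2.49 ± 0.09. Tex13b, Calml4, Scn10a, Aard, Dcaf12l1 and Pcdh17 lay under the filter level of the SV40 MEFs, 3.63, with both constructs, so their level in that line is only bounded and their difference between the lines rests on MIN6. Sst was dim there as well, at 4.69 and 4.59. Slc2a2 was dim in those cells too, at 2.16 in the controls.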

How the data were processed

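The series measured total RNA on Affymetrix mouse genome arrays, 1 sample each. The deposited table holds linear intensity values made with RMA (background correction, normalization and summarisation), per the submitters' processing notes, which give no version. Whether all 51 arrays were normalized together is not given in the sources used here. The logarithm to base 2 was taken of these values. Of 45101 probe sets, 64 were array controls, 34945 had 1 gene symbol, 932 had several and 9160 had none; symbols came from the platform annotation, and 34741 were updated by gene ID through a RefSeq table of GRCm38.p6. A dimness filter removed probe sets that stayed below the 40th percentile of the line's group means in every group, and the brightest remaining probe set stood for its gene.

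In R 4.3.3, limma 3.58.1 estimated a mean per group by lmFit, moderated by eBayes, over the 9 MIN6 arrays, with 6 residual degrees of freedom, or over 12 arrays for both lines. Tests were two-sided, with Benjamini-Hochberg adjustment over all tested genes. The code was tested on simulated data. Named were the Hmgn genes, the 12 largest rises and falls without overlap against the vector, the 6 largest each way in the other comparisons, up to 8 called members of the 5 islet and neuron lists, up to 4 members with the smallest p of every other list, and defining beta cell markers. The comparison, the lists and the named genes were chosen with earlier results of these data known. Arrays carry no read depth; 3 arrays a group limit the precision. Replicate numbers were not taken to pair the arrays (see the closing section). Figures were drawn with matplotlib 3.10.9. Motifs were searched in RefSeq promoter windows of GRCm38.p6. Alternatives were the filter, single probe sets, quantile normalization, the replicate block, the arrays in the fit, an intensity trend, a fold threshold, each array left out, and, chosen after seeing the data, chromosomes left out or centred.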

Additional observations from a re-analysis of the deposited data

Results flagged for a closer look

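The effect of the HMGN3a construct differed between MIN6 cells and SV40 MEFs by the direct test of the difference (limma over 12 arrays, Benjamini-Hochberg adjusted p below 0.05) for 2784 genes. Among the genes named for this comparison, the MIN6 effect was the higher for Maf by 3.31 ± 0.09, Tex13b by 2.69 ± 0.13, Lrpprc by 2.49 ± 0.09, Calml4 by 2.44 ± 0.14, Scn10a by 2.43 ± 0.22 and Gstm2 by 2.39 ± 0.17 on the log2 scale. It was the lower for Nrn1 (-4.96 ± 0.23), Sst (-4.94 ± 0.15), Aard (-3.95 ± 0.19), Dcaf12l1 (-3.48 ± 0.13), Mbnl3 (-3.45 ± 0.17) and Pcdh17 (-3.39 ± 0.26). The adjusted p of these 12 genes lay between 4.31e-10 for Maf and 9.96e-06 for Scn10a. A second probe set of Maf gave a difference between the lines of 0.03 (adjusted p = 0.93), so that result depends on the probe set. All 3 MIN6 HMGN3a arrays lay apart from all 3 MIN6 controls in each of them. Nrn1, Aard, Dcaf12l1, Mbnl3 and Pcdh17 had HMGN3a means under the filter level of 5.13 in MIN6, where they fell by at least 3.88, 2.54, 2.28, 2.01 and 1.72, and Scn10a rose by at least 1.15. Tex13b, Calml4, Scn10a, Aard, Dcaf12l1 and Pcdh17 lay under the SV40 MEF filter level of 3.63 with both constructs, so their values rest on MIN6. The probe set of Tex13b used across both lines is another than the one used within MIN6. What sets the lines apart was not tested.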

How the results depend on the processing

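For 156 genes named in the comparison with the vector, 2225 values were recomputed under alternatives. Of these, 2097 were counted as unchanged, 112 were no longer called, 12 became called and 4 of called genes reversed. Called genes counted as unchanged kept their direction and their call. Genes not called at first were counted as unchanged also where their sign changed. The added 1.5-fold threshold gave 58 of the 112 lost calls. Reversed were Npy at 0.00 with another quantile normalization, Atp5b at 0.03 with each chromosome centred, and the second probe sets of Dnajb4 at 0.21 and Kdm5b at 0.13; the cause was not tested. The count of called genes was 4488 against the vector, 4472 against HMGN1 and 2784 between the lines. With every probe set tested on its own it was 7495, 7689 and 4349, since more features were tested. With the 1.5-fold threshold added it was 869, 853 and 978. Leaving out 1 array at a time gave 3729 to 4120, 3312 to 4129 and 2167 to 2537. Quantile normalization changed the share of calls that were higher from 42.7% to 51.4%, from 47.9% to 53% and from 35.1% to 46.3%. Deviations of same-numbered vector and HMGN3a arrays from their group means correlated across genes at 0.36, 0.16 and 0.08. For same-numbered HMGN1 and HMGN3a arrays the correlations were -0.39, -0.31 and 0.18. Arrays of unlike number were not compared in this way, so these values do not settle whether a pairing existed. The numbers were not taken to pair the arrays. With the replicate number as a block the counts were 4382, 4367 and 2687, and no call of a named gene changed. The arrays give no depth, and differences at levels under 5.13 are bounds.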
